A study of Mus musculus with 4 samples.

Results

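The genes described here encode 58 ribosome biogenesis factors, proteins that make, modify and assemble the ribosome without being part of the finished particle. They were measured by messenger RNA sequencing in MC38, a mouse colon adenocarcinoma line of wild-type genotype that the labels call an epithelial cell line. The group labelled nonIR was left unirradiated, and the group labelled IR received 1 X-ray fraction of 30 Gy and was taken 60 h later. Each group holds 2 libraries, and no other allele or agent is named for either. The members were selected on their names and roles in a proposal made with the fold changes of these same libraries known. Their changes between the groups are therefore given as a description, without p-values of single members. A member is said to fall, rise or not pass by the adjusted p threshold applied to all tested genes. These calls describe the members and support no test of them. All 58 were found among the 26561 genes of the count table by symbol, and all 58 passed the filter on low counts. They were divided by step into the core of the small nucleolar ribonucleoproteins (snoRNPs, 8 genes), nucleolar scaffolds and RNA polymerase I factors (5), the small subunit (21), the large subunit (18) and DEAD-box helicases (6).

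Ribosomal RNA is transcribed by RNA polymerase I in the nucleolus as a long precursor. Guided by small nucleolar RNAs, snoRNPs methylate it or convert uridines to pseudouridine, while separate sets of factors fold and cut the parts that become the small and the large subunit, and helicases open and remodel RNA duplexes on the way. The pathway is among the costliest of a growing cell, and in tumour cells it is commonly raised with growth signalling.

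The libraries hold 26059171 to 29881492 counts. Between 19413 and 19531 genes had a count above 0 in the unirradiated libraries and between 22663 and 22713 in the irradiated ones. Levels are given as CPM (counts per 1000000, after scaling library sizes by TMM) and are thus shares of the messenger RNA pool: in bulk samples, fewer cells of a type and less RNA per cell cannot be told apart. The labels do not say whether replicate libraries stem from separate cultures, and the p-values rest on a spread between libraries that could be purely technical. When the unirradiated cells were taken is not stated, so time in culture cannot be told apart from irradiation. Of 7 epithelial markers found, Cdh1 reached 34.6 to 73.0 CPM, whereas Epcam, Krt18, Cldn7 and Vil1 stayed under 1 CPM in every library. The epithelial markers summed to 36.5 and 38.5 CPM without and to 70.1 to 75.9 CPM after irradiation. Of 5 immune markers 4 stayed under 1 CPM throughout (their sum was 4.04 to 4.99 and then 32.5 to 38.5 CPM, nearly all Cd68). The 5 fibroblast markers summed to 848 to 857 and then to 1104 to 1126 CPM. Most of that sum was Col1a2 (means of 749 and then 914 CPM), while Dcn went from a mean of 1.83 to 36.2 CPM. The 4 endothelial markers summed to 1.92 to 2.58 and then to 6.21 to 6.55 CPM. The part of these markers in the changes below was not tested.

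Messages for nearly every factor were less abundant after irradiation. Added up, the 58 genes held 9352 and 9491 CPM without irradiation and 5998 and 5952 CPM after it, so that 63.4% of the unirradiated level was left. Nucleolin (Ncl) and nucleophosmin (Npm1) make up a large part of that sum, but without them the remaining 56 genes went from 6444 ± 18.6 to 4076 ± 12.8 CPM (SD, n = 2 libraries in each group), or to 63.2%. Of the 58 genes, 55 fell at an adjusted p under 0.05 (edgeR's quasi-likelihood test, Benjamini-Hochberg over 15298 genes), where 30.3% of all tested genes fell. Since the choice of the members rested on this contrast, nothing is read from that difference. None rose, where 30.4% of all tested genes did, and none was higher at an unadjusted p under 0.05 or by DESeq2. Of the 7894 genes with a mean of at least 20 CPM over the 4 libraries, a mean that every member reaches, 45.2% fell. In 56 members both irradiated libraries lay below both unirradiated ones, which held for 38.7% of all tested genes, and 12 members had a log2 fold change of -1 or below, as did 4.19% of all tested genes.

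The median log2 fold change of the members was -0.76, that is 59.3% of the unirradiated level, beside 0.01 over all tested genes and -0.08 over those of at least 20 CPM. Single members ranged from -1.54 for Rrp12 to 0.07 for Nop14. Abundance and change were unrelated across the 58 genes (Pearson r = 0.02 between the log2 unirradiated CPM and the log2 fold change, a description across genes that share the same 4 libraries). By step, the median was -0.91 for the snoRNP core, -0.81 for the small subunit, -0.72 for scaffolds and polymerase I factors, -0.49 for the large subunit and -0.49 for the helicases. These medians were not tested against each other, and the ranges of the steps overlap.

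**Figure D1:**
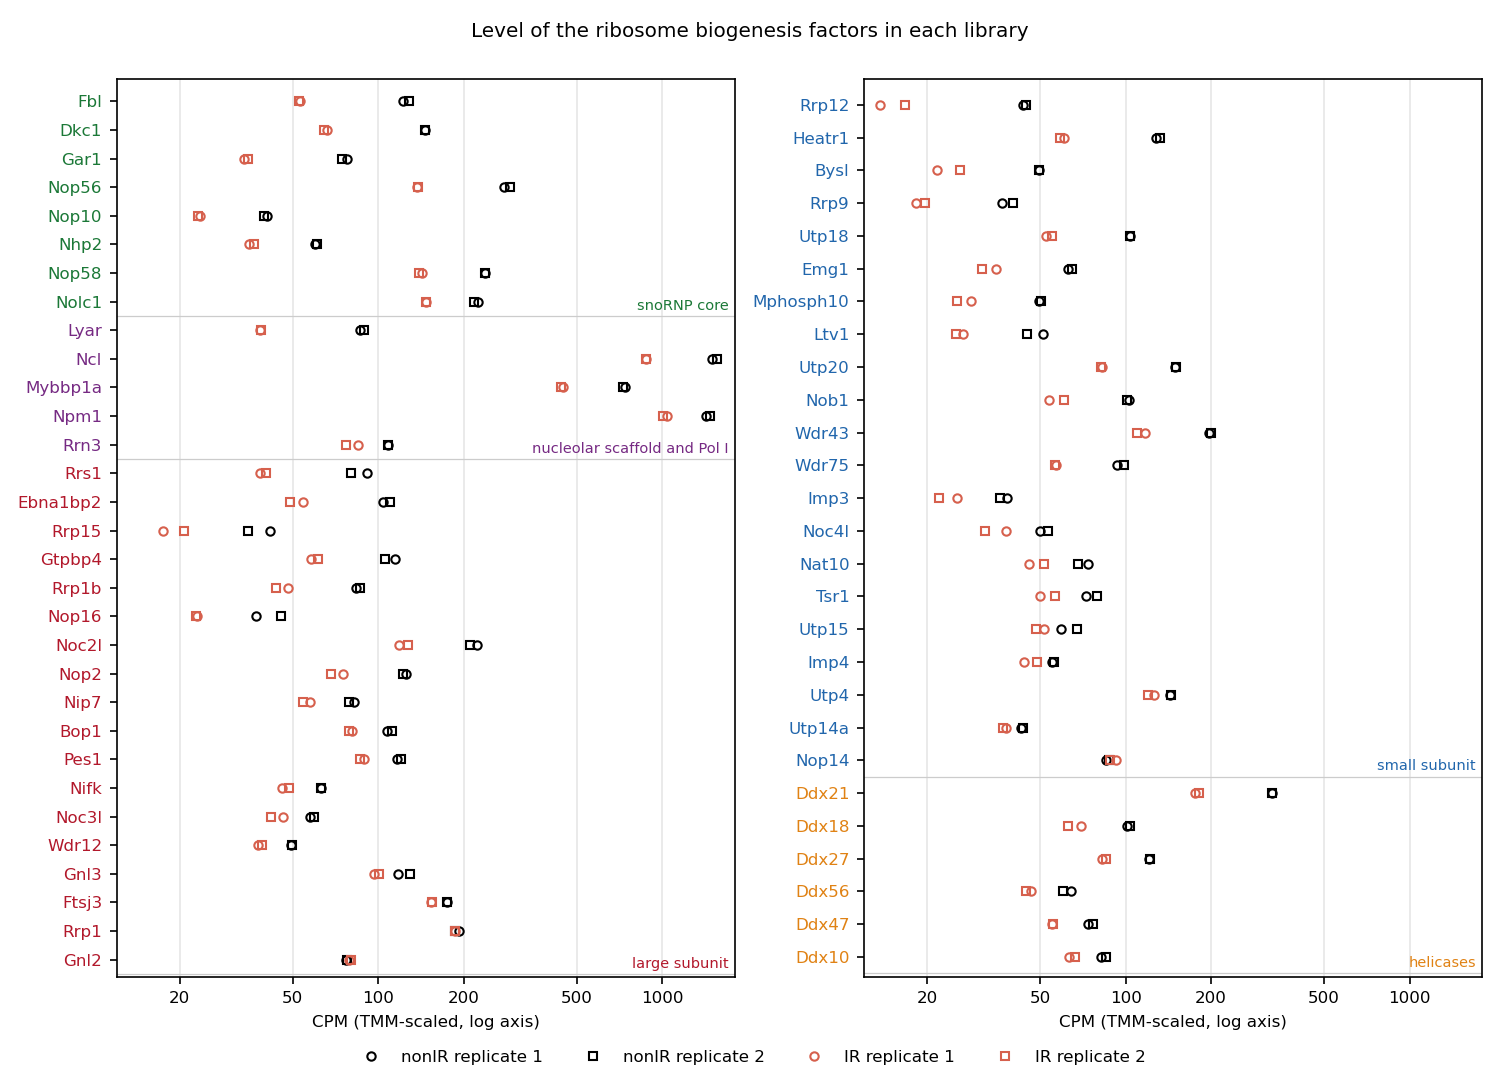
Level of each of the 58 factors in the 4 libraries, in CPM on a log axis, grouped by step and ordered by change. Black symbols are the unirradiated and red symbols the irradiated libraries, circles replicate 1 and squares replicate 2. The red symbols lie left of the black ones for 56 genes, the exceptions being Nop14 and Gnl2.

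**Figure D2:**
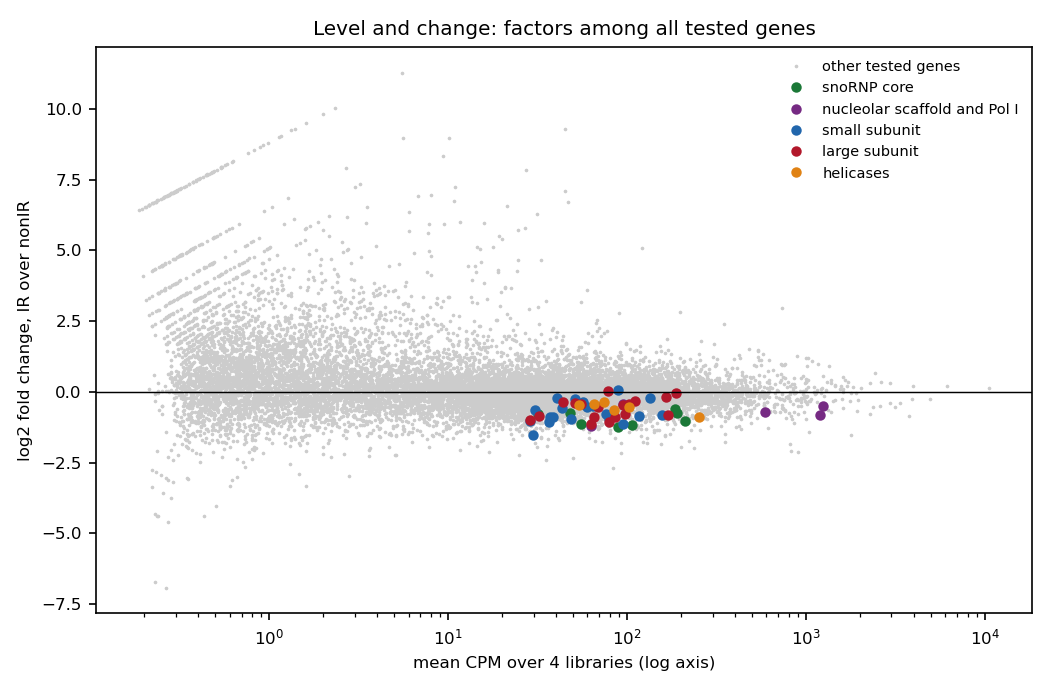
Mean CPM over the 4 libraries (log axis) and log2 fold change of irradiated over unirradiated cells for 15298 tested genes, the factors coloured by step. The members sit at moderate to high levels and all but Nop14 and Gnl2 lie below 0.

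The members' promoters were searched for CACGTG, the E-box that MYC with its partner MAX and other basic helix-loop-helix proteins bind. The motif is its own reverse complement, so that 1 search covers both strands. RefSeq promoter windows (GRCm38.p6) were found for 52 members. In the 250 bases before the start, 4 of the 52 (7.69%) held the motif, beside 9.58% of 10587 tested genes and 6.86% of all 27025 genes in the promoter table. In the first 50 bases from the start it was found in 7 of 52 (13.5%), beside 1.83% of tested genes and 1.28% of all genes. These are shares of sequence matches and do not show that anything binds there. Among all tested genes with a window, 34.6% of those with the motif in the 250 bases before the start fell, and 33.6% of those without it. For the first 50 bases from the start, genes with and without the motif were not compared by their change. The matches are shown 5′ to 3′ on the gene's strand with the motif in capitals, because the choice of members did not use them; the 7 matches after the start were added once their share had been seen.
Mybbp1a, chr11:72441355-72441376, plus strand, first motif base 41 from the start: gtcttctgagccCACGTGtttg
Wdr43, chr17:71616220-71616249, plus strand, 18 from the start: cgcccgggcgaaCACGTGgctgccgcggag
Utp4, chr8:106893643-106893672, plus strand, 16 from the start: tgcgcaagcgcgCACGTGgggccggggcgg
Utp20, chr10:88826765-88826789, minus strand, 38 from the start: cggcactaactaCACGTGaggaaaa
Pes1, chr11:3963965-3963994, plus strand, 3 from the start: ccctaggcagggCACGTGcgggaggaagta
Tsr1, chr11:74898092-74898121, plus strand, 25 from the start: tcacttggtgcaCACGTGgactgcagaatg
Ltv1, chr10:13193092-13193121, minus strand, 29 from the start: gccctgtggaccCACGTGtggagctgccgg
Nop2, chr6:125131811-125131840, plus strand, 60 before the start: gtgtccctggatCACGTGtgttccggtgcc
Rrn3, chr16:13780639-13780668, plus strand, 48 before the start: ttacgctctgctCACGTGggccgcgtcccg
Utp18, chr11:93885769-93885798, minus strand, 20 before the start: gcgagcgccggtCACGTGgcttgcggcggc
Imp4, chr1:34439696-34439725, plus strand, 121 before the start: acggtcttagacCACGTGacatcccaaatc

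A second match in Rrn3 lies 215 bases before the start. The 11 genes with a match had log2 fold changes from -0.96 (Utp18) to -0.23 (Utp4). The 7 genes with the motif just after the start include Wdr43 and Utp4 of the same small subunit complex, which stood at -0.81 and -0.23.

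All 8 genes of the snoRNP core step fell, where 30.3% of all tested genes did. Fibrillarin (Fbl, ENSMUSG00000046865, chromosome 7, 28169710 to 28179269, GRCm38), the methyltransferase of box C/D snoRNPs, was at 122 and 128 CPM without irradiation and at 53.0 and 52.6 CPM after it (log2 fold change -1.25, SE 0.05). Nop56 (chromosome 2, 130274430 to 130279313), a scaffold of the same particle, was at 277 and 290 CPM and then at 137 and 138 CPM (-1.04, SE 0.04). Of their unirradiated levels 42.1% and 48.6% were left. Both irradiated libraries lay below both unirradiated ones, as in 56 of the 58 members and 38.7% of all tested genes. Nop58, the partner of Nop56, kept more, with 237 ± 1.05 and 141 ± 2.98 CPM (SD, n = 2; -0.75, SE 0.04). Per kb of annotated principal transcript, these 3 box C/D members stood between 105 and 151 CPM without irradiation and between 44.1 and 82.3 CPM after it. The log2 ratio of Fbl to Nop58 was -0.95 and -0.89 in unirradiated and -1.43 and -1.40 in irradiated libraries, a difference between their changes of -0.50 (SE 0.07).

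The box H/ACA core, which makes pseudouridine and also binds telomerase RNA, fell in all 4 genes, beside 30.3% of all tested genes. Dyskerin (Dkc1, chromosome X, 75095854 to 75109777), its catalytic subunit, was at 146 and 146 CPM and then at 66.2 and 64.3 CPM (-1.16, SE 0.05). Gar1 (chromosome 3, 129824912 to 129831396), which helps to load and release the substrate, was at 77.5 and 74.5 CPM and then at 33.8 and 34.9 CPM (-1.15, SE 0.07). Both retained about as much, 44.6% and 45.2%, while the smaller subunits Nhp2 and Nop10 retained 59.1% and 58.3% (-0.76, SE 0.07, and -0.78, SE 0.09). Nolc1, a chaperone that accompanies both classes of snoRNP, had the smallest shift of the step (-0.59, SE 0.04). Exons of Nop56, Dkc1 and Nhp2 overlap a gene on the other strand by 5, 45 and 44 bases, and reads in such overlaps cannot be assigned without knowing whether strand was kept.

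Some member genes also hold snoRNA genes. In the GENCODE annotation 21 snoRNA genes lie inside 7 members on the same strand (Nop56, Nop58, Ncl, Wdr43, Gnl3, Tsr1 and Dkc1). The 7 host genes had a median log2 fold change of -0.80 and the other 51 members of -0.72. The snoRNAs themselves are barely seen by messenger RNA libraries: 12 of them have a row in the table, with at most 23 counts in a library, and none is interpreted. One box C/D snoRNA is shown for each of 5 hosts, from the GENCODE M21 transcripts in DNA letters, to show the layout. Capitals mark exact matches to TGATGA within the first 20 bases (box C) and CTGA within the last 15 (box D), the elements that the C/D core proteins require. Of the 21 snoRNA genes, 8 held both strings, and the 5 shown were taken from these. Snord70 in Nop58, for example, holds neither exact string at these places.
Snord110 in Nop56, chr2:130275506-130275573, plus strand: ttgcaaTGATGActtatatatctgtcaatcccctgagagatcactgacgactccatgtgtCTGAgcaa
Snord11 in Nop58, chr1:59704790-59704873, plus strand: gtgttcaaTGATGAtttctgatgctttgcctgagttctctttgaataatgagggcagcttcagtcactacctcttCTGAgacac
Snord82 in Ncl, chr1:86356261-86356330, minus strand: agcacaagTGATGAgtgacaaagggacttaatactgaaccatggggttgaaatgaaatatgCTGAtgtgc
Snord92 in Wdr43, chr17:71631281-71631365, plus strand: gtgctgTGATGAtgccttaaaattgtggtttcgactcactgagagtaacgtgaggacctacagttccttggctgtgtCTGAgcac
Snord69 in Gnl3, chr14:31014287-31014366, minus strand: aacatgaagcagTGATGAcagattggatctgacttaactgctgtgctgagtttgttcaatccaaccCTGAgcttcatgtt

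The nucleolar scaffolds include the most abundant members, and all 5 genes of the step fell, beside 30.3% of all tested genes. Nucleolin (Ncl, ENSMUSG00000026234, chromosome 1, 86344719 to 86359400), which binds nascent precursor RNA, was at 1497 and 1561 CPM and then at 876 and 875 CPM (-0.80, SE 0.02). Nucleophosmin (Npm1, chromosome 11, 33152287 to 33163206), the scaffold of the outer nucleolus and the member with the highest level per kb of its step, was at 1424 and 1472 CPM and then at 1037 and 1011 CPM (-0.50, SE 0.02). The irradiated libraries thus held 57.3% and 70.7% of the unirradiated levels of these abundant messages. Lyar, a nucleolar zinc finger protein of precursor processing, fell more steeply, from 86.5 and 88.8 CPM to 38.2 and 38.6 CPM (-1.19, SE 0.06). Mybbp1a, a MYB-binding protein that restrains polymerase I, was at 739 and 727 CPM and then at 446 and 441 CPM (-0.72, SE 0.03). Rrn3, the factor that brings polymerase I to the ribosomal RNA promoter, fell least of this step, from 108 ± 0.223 to 81.1 ± 5.49 CPM (SD, n = 2; -0.41, SE 0.05).

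Small subunit factors fell in 20 of 21 genes, beside 30.3% of all tested genes, and this step spans the widest range. Rrp12 (ENSMUSG00000035049, chromosome 19, 41862851 to 41896173), a HEAT-repeat protein that helps export precursors of the small subunit, had the steepest change of all members, from 43.4 and 44.5 CPM to 13.7 and 16.7 CPM (-1.54, SE 0.09). That left 34.6% of its level. Bysl, which acts on late small subunit precursors, was at 49.6 and 49.4 CPM and then at 21.6 and 26.1 CPM (-1.06, SE 0.08). Rrp9, a protein specific to the U3 snoRNP, was at 36.8 and 40.1 CPM and then at 18.3 and 19.6 CPM (-1.02, SE 0.09). The exons of Bysl and Rrp9 overlap Ccnd3 and Parp3 on the other strand by 361 and 20 bases, and both neighbours hold more counts than the member.

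The UTP-A complex, which binds the growing precursor first and is also needed for its transcription, did not change evenly among its 5 member genes. Heatr1 (chromosome 13, 12395027 to 12440289), its largest subunit, was at 128 and 132 CPM and then at 60.9 and 58.7 CPM (-1.12, SE 0.05). Wdr43 and Wdr75 followed with log2 fold changes of -0.81 (SE 0.04) and -0.76 (SE 0.06). Utp15 stood at -0.34 (SE 0.06), and Utp4, the member with the highest level per kb of the small subunit step, went from 143 and 145 CPM to 126 and 120 CPM (-0.23, SE 0.05). The log2 ratio of Heatr1 to Utp4 was -0.16 and -0.13 without irradiation and -1.05 and -1.03 after it, a difference between their changes of -0.89 (SE 0.07). This pair, like the other 7 pairs compared, was chosen after the values were seen. Exons of Heatr1 overlap Lgals8 by 155 bases.

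Other small subunit factors with a change beyond -0.8 were Utp18, a subunit of UTP-B (-0.96, SE 0.06), Emg1, a methyltransferase of 18S RNA (-0.94, SE 0.07), Mphosph10 (-0.89, SE 0.08), Ltv1, an export and assembly factor (-0.88, SE 0.08), the HEAT-repeat protein Utp20 (-0.87, SE 0.05) and Nob1, the nuclease that cuts the end of 18S RNA (-0.83, SE 0.06). Changes between -0.64 and -0.52 were found for Imp3, Noc4l, the RNA acetyltransferase Nat10 and Tsr1. Within the MPP10 complex, which keeps U3 on the precursor, Imp4 went from 55.5 ± 0.723 to 46.3 ± 3.42 CPM (SD, n = 2; -0.26, SE 0.07), and the difference between the changes of Imp3 and Imp4 was -0.37 (SE 0.11). Its size rests on single libraries: it was -0.20 without irradiated replicate 2 and -0.56 without irradiated replicate 1. Utp14a, which activates a helicase of the small subunit precursor, fell least, from 42.9 and 43.4 CPM to 38.0 and 37.0 CPM (-0.20, SE 0.08). Utp14a did not pass when unirradiated replicate 2 or irradiated replicate 2 was left out (-0.20 and -0.19), or with totals as the only scaling (-0.14). Emg1 and Tsr1 overlap Lpcat3 and Srr by 334 and 1240 bases.

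Nop14 (chromosome 5, 34638536 to 34660148), a scaffold of the small subunit precursor, was the member of this step that did not pass. It was at 85.4 and 87.2 CPM without and at 92.4 and 88.4 CPM after irradiation (0.07, SE 0.05), so both irradiated libraries lay slightly above. With totals as the only scaling its change was 0.13 and passed as higher. Noc4l, which binds Nop14, went from 50.1 and 53.4 CPM to 37.9 and 31.9 CPM (-0.57, SE 0.07). The log2 ratio of Noc4l to Nop14 was -0.77 and -0.71 before and -1.29 and -1.47 after, a difference between their changes of -0.63 (SE 0.09).

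**Figure D3:**
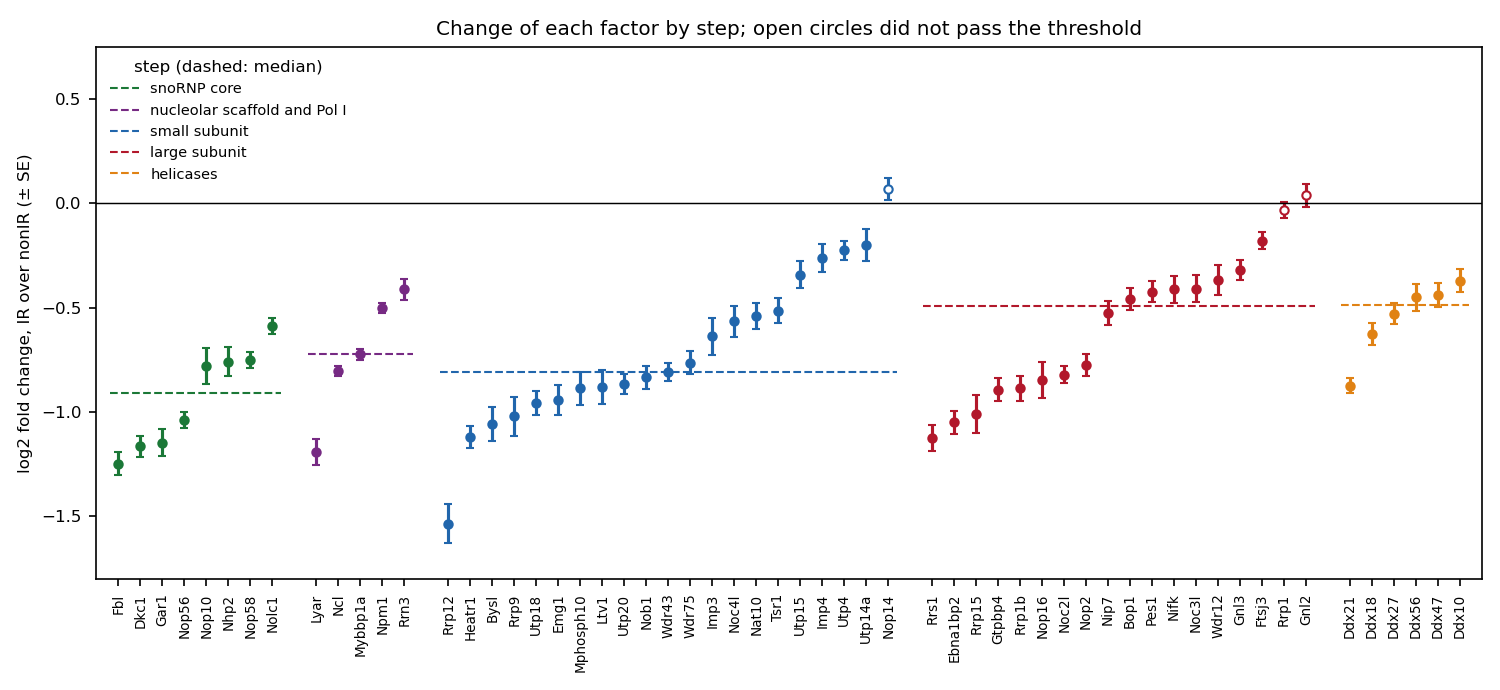
Log2 fold change of irradiated over unirradiated cells with its standard error for each factor, ordered within its step, with the median of the step dashed. Open circles mark Nop14, Rrp1 and Gnl2, which did not pass, and the small subunit step runs from -1.54 to 0.07.

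Large subunit factors fell in 16 of 18 genes, beside 30.3% of all tested genes. Of the 18, 3 had a log2 fold change of -1 or below, as did 4.19% of all tested genes. Rrs1 (ENSMUSG00000061024, chromosome 1, 9545408 to 9547455), which brings the 5S RNA particle into the precursor, was at 91.4 and 80.1 CPM and then at 38.4 and 40.2 CPM (-1.13, SE 0.06). Ebna1bp2 (chromosome 4, 118620799 to 118627776), a scaffold of the early large subunit, was at 104 and 110 CPM and then at 54.4 and 48.9 CPM (-1.05, SE 0.06). Rrp15, another early factor, was at 41.7 and 34.9 CPM and then at 17.4 and 20.7 CPM (-1.01, SE 0.09). In these 3 genes both irradiated libraries lay below both unirradiated ones, as in 17 of the 18 genes of the step and 38.7% of all tested genes. The GTPase Gtpbp4 was at 115 and 106 CPM and then at 58.0 and 61.2 CPM (-0.89, SE 0.05). Noc2l fell with -0.82 (SE 0.04), Nop16 with -0.85 (SE 0.09) and Nop2, a cytosine methyltransferase of 28S RNA, with -0.77 (SE 0.05).

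The PeBoW complex of Pes1, Bop1 and Wdr12, required for cutting the spacer next to 28S RNA, moved evenly. Pes1 stood at -0.42 (SE 0.05), Bop1 at -0.46 (SE 0.05) and Wdr12 at -0.37 (SE 0.07), a span of 0.09 (0.05 to 0.13 when single libraries were left out). The 5 member genes of UTP-A spanned 0.89 and the 3 of the MPP10 complex 0.62 (0.47 to 0.78 when single libraries were left out). The span was 0.50 for the 3 member genes of the box C/D core and 0.40 for the 4 of the box H/ACA core. A span widens with the number of genes and with their SE, and differences between these spans were not tested. The log2 ratio of Pes1 to Bop1 was 0.10 in both unirradiated and 0.14 in both irradiated libraries, with a difference between changes of 0.04 (SE 0.07). Exons of Bop1 and Wdr12 overlap Mroh1 and Carf by 50 and 61 bases. Changes of similar size were found for Nip7 (-0.53, SE 0.06), Nifk, a partner of the Ki-67 protein (-0.41, SE 0.07), and Noc3l (-0.41, SE 0.07), and the methyltransferase Ftsj3 had a small one (-0.18, SE 0.04). Noc2l and Noc3l, which bind each other, differed by -0.41 (SE 0.08). That difference was -0.28 without irradiated replicate 1 and -0.54 without irradiated replicate 2.

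A paralog pair and a pair of related GTPases went separate ways. Rrp1 (chromosome 10, 78400384 to 78413043), the large subunit member with the highest level per kb, was at 193 and 186 CPM and then at 186 and 186 CPM (-0.03, SE 0.04) and did not pass. Its paralog Rrp1b (chromosome 17, 32036100 to 32062865) was at 83.6 and 86.4 CPM and then at 48.0 and 43.8 CPM (-0.89, SE 0.06). The log2 ratio of Rrp1b to Rrp1 thus moved from -1.21 and -1.11 to -1.95 and -2.08, a difference of -0.86 (SE 0.07). Gnl2 (chromosome 4, 125016585 to 125055380), a GTPase that checks the large subunit before export, was at 77.3 and 77.7 CPM and then at 79.1 and 80.2 CPM (0.04, SE 0.06) and did not pass either. Gnl3, which encodes the related GTPase nucleostemin, was at 117 and 129 CPM and then at 96.6 and 101 CPM (-0.32, SE 0.05), and its change differed from that of Gnl2 by -0.36 (SE 0.07). Exons of Gnl3 overlap Pbrm1 by 15 bases.

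All 6 DEAD-box helicases fell, beside 30.3% of all tested genes, though none reached a log2 fold change of -1. Ddx21 (ENSMUSG00000020075, chromosome 10, 62580251 to 62602281), which acts both in polymerase I transcription and on the precursor and has the highest level per kb of the step, was at 328 and 327 CPM and then at 175 and 182 CPM (-0.87, SE 0.04). Ddx18, of the large subunit, was at 101 and 104 CPM and then at 69.5 and 62.9 CPM (-0.63, SE 0.05). Ddx27, also of the large subunit, was at 121 and 122 CPM and then at 82.6 and 85.6 CPM (-0.53, SE 0.05). Ddx56 was at 64.0 and 60.4 CPM and then at 46.6 and 44.5 CPM (-0.45, SE 0.07). The small subunit helicases Ddx47 and Ddx10 stood at -0.44 (SE 0.06) and -0.37 (SE 0.06), so that the changes other than that of Ddx21 lie between -0.63 and -0.37.

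A wider set of 99 pathway genes, listed by role, was examined beside the members, and 98 were matched and tested. Of these, 77 fell and 4 rose, with a median log2 fold change of -0.47, beside 30.3% lower and 30.4% higher among all tested genes and 45.2% lower among those with a mean of at least 20 CPM. These lists too were written with earlier results of these libraries known, so their counts are a description, and the adjusted p-values below are those of single genes in the analysis of all 15298. Among 35 other small subunit factors 29 fell and none rose, with Nol10 (-1.24, SE 0.07, edgeR adjusted p = 1.77e-76) and Nol7 (-0.91, SE 0.06, adjusted p = 1.53e-54) the lowest. Nol10 was at 74.7 and 79.1 CPM and then at 33.8 and 31.1 CPM. The change nearest to 0 among those that passed was that of the helicase gene Ddx52 (-0.17, SE 0.06, adjusted p = 4.31e-03), which did not pass without irradiated replicate 2 (-0.14) or with totals as the only scaling (-0.11). Riok2 was not analysed here.

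Among 37 other large subunit factors 30 fell and 2 rose, beside 30.3% lower and 30.4% higher among all tested genes. Nle1, a partner of the large ATPase that remodels the particle, had the lowest value (-1.31, SE 0.11, adjusted p = 8.28e-34), at 34.3 and 28.9 CPM and then at 13.1 and 12.4 CPM. Rrp8, a methyltransferase of 28S RNA, followed (-1.08, SE 0.10, adjusted p = 1.62e-25). The helicase gene Ddx24 rose from 124 and 117 CPM to 156 and 155 CPM (0.37, SE 0.05, adjusted p = 1.66e-15). The other gene of this list that rose was Sbds (0.16, SE 0.05, adjusted p = 3.43e-03; not passed without unirradiated replicate 2, at 0.14), named after its value was seen, which encodes a factor that releases EIF6 from the nearly finished subunit.

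Of 11 genes listed under snoRNP assembly, 8 fell and none rose (median -0.66), beside 30.3% lower and 30.4% higher among all tested genes. The lowest were Ruvbl2, an ATPase of the assembly machinery (-0.96, SE 0.06, adjusted p = 1.62e-63), and Snu13, which binds the kink of box C/D RNA (-0.86, SE 0.05, adjusted p = 1.03e-57). Snu13 was at 122 and 118 CPM and then at 63.4 and 68.9 CPM. Nufip1 had the change nearest to 0 among those that passed (-0.26, SE 0.09, adjusted p = 8.75e-03). Of 15 genes of the polymerase I machinery 10 fell and 2 rose (median -0.34). Polr1b, the second largest subunit, was at 61.2 and 61.2 CPM and then at 31.6 and 28.4 CPM (-1.03, SE 0.07, adjusted p = 3.12e-44). Znrd1, a small subunit of the enzyme, also fell (-0.73, SE 0.11, adjusted p = 7.51e-10). Taf1c, a subunit of the promoter selectivity factor, rose (0.35, SE 0.14, adjusted p = 0.0225), but did not pass without unirradiated replicate 1 (0.21), without irradiated replicate 1 (0.21) or by DESeq2. The other that rose was Ttf1, the transcription termination factor, named after its value was seen (0.19, SE 0.08, adjusted p = 0.0259). It did not pass without unirradiated replicate 2 (0.11), without irradiated replicate 2 (0.15), without the filter on low counts or by DESeq2.

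**Figure D4:**
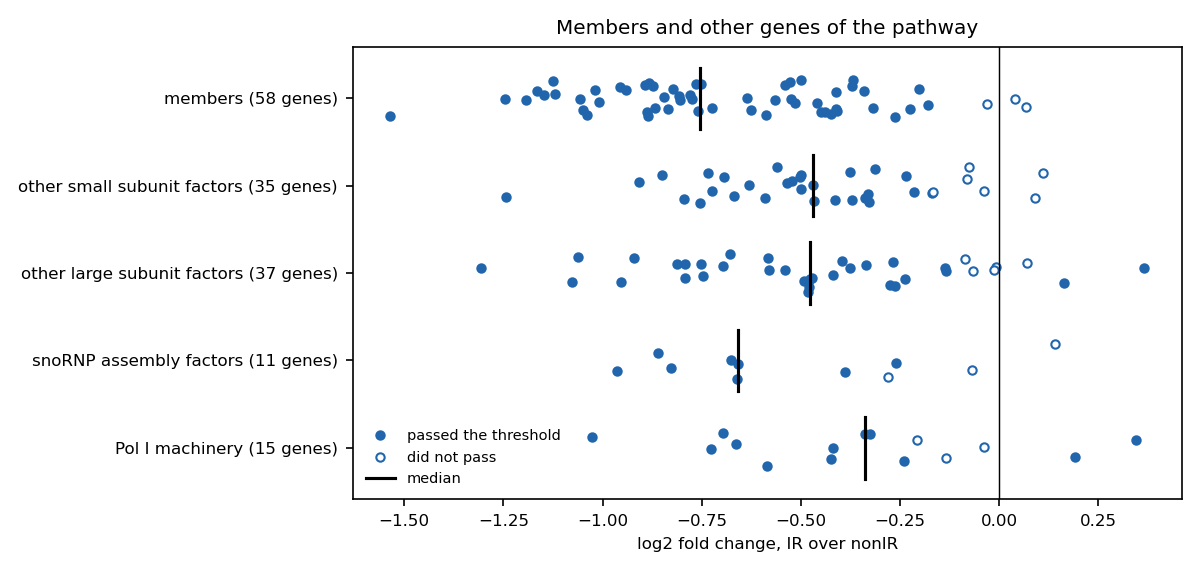
Log2 fold change of irradiated over unirradiated cells for the 58 members and for 4 lists of other pathway genes, 1 point per gene with the median as a black bar. Filled points passed the threshold, and the medians run from -0.76 for the members to -0.34 for the polymerase I machinery.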

How the data were processed

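The authors deposited raw counts, whole numbers for each Ensembl gene and library, without normalization. HISAT2, HISAT, HTSeq, DESeq2 and mm10 are named, per the submitters' processing notes, without versions or roles. The sources used here do not give annotation, strand setting or handling of multiply mapped reads. Groups and replicate numbers came from sample titles, and columns were matched to titles. The description of unirradiated replicate 2 carries number 1, so its title was followed. Symbols, positions and lengths are from GENCODE M21 (GRCm38), which need not be the authors' release. Promoters are from RefSeq (GRCm38.p6). snoRNA sequences are GENCODE transcripts.

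The counts were tested with edgeR 4.0.16 in R 4.3.3 (TMM, filterByExpr, robust glmQLFit, glmQLFTest, irradiation as the only term), with Benjamini-Hochberg adjustment over 15298 genes holding 99.9% of the counts and a threshold of 0.05. The biological coefficient of variation was 4.57%. Standard errors are the absolute log2 fold change over the square root of F. The SE of a difference between genes combines both as if independent. Only 10 of 58 members had a finite prior degrees of freedom: the others take their spread from the trend over all genes. Levels per kb follow the annotated APPRIS principal transcript and shift with its length. The code was tested on simulated data.

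Members and lists were chosen with earlier results of these data known. Values in every library are given for the 4 most changed members of each step, any that rose and the highest per kb; of each other list, the 2 lowest and 1 highest that passed with a mean of at least 5 CPM are named. Exon overlap is named where the other gene has over 10% as many counts (11 members). Alternatives were DESeq2 1.42.0, RLE factors, totals only, no filter, leaving out each library and a replicate block.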

Additional observations from a re-analysis of the deposited data

How the results depend on the processing

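The count of members that fell was 55 with DESeq2, with RLE size factors, without the filter on low counts and with the replicate block, and 54 with totals as the only scaling; leaving out each library in turn gave 54 to 55. With totals only, 1 member was higher, Nop14, of the small subunit. The members' median log2 fold change moved beyond the spread between replicate libraries (SD 0.02) to -0.78 without the filter and -0.70 with totals only. It ran from -0.77 to -0.73 when single libraries were left out, and -0.73, without irradiated replicate 2, was also beyond that spread. In those fits the lone library of a group is assumed to vary like the other group. The other pathway genes that rose numbered 4 in the main analysis, 7 with totals only, 2 with DESeq2 and 2 to 3 without single libraries. The share of members' promoters with CACGTG, 7.69% before the start, was 21.2% with the next 50 bases included, beside 11.4% of tested and 8.09% of all genes in that window. The median over all tested genes was 0.01, and 0.02 with RLE factors, 0.07 with totals only, 0.22 without the filter (26561 genes) and 0.23 with DESeq2 (19352 genes), both of which test more low genes. Whether same-numbered libraries share more than a number is not known here. The r of -0.005 between deviations of replicates 1 from their group means shows no pairing but does not exclude it. The replicate block gave 4519 genes lower and 4507 higher, beside 4634 and 4655, and changed no call among the members. With 2 libraries in each group, precision rests on the trend over genes. Leaving out libraries for the pairs and complexes was an alternative chosen after seeing the data; of 8 pairs, Imp3 with Imp4 moved by over 1.5 times.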
